A study of Mus musculus with 22 samples.

Results

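Adipocyte-rich spots of the mouse mammary gland were compared between 18 and 3 months of age. Spatial transcriptomics reads RNA at barcoded spots laid over a tissue section, and 1 spot covers a patch of tissue with several cells or pieces of cells. The spots were chosen by their own RNA. Among spots with at least 500 unique molecular identifiers (UMIs, each standing for 1 captured molecule), the 10% of each section with the largest share of UMIs from Adipoq, Plin1, Cidec, Fabp4, Lpl and Pparg were taken. This gave 2222 of the 24815 spots under tissue. There were 437 in 3-month replicate 1, 395 in 3-month replicate 2, 623 in 18-month replicate 1 and 767 in 18-month replicate 2. The other 20013 spots with at least 500 UMIs served for comparison.

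All 4 sections were of the inbred strain C57BL/6J and came from virgin females, with no transgene or treatment named in the labels. There were 2 sections at 3 months and 2 at 18 months, cut at 15 µm from formalin-fixed, paraffin-embedded mammary tissue. The labels give a replicate number but do not say whether the sections of one age came from separate animals, so p-values measure the spread between these sections. In the single-cell RNA table of the same series the authors named 11 cell types besides a doublet cluster. No type or subtype carried the name adipocyte, so that table offers no named fat cells to set beside these spots.

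White adipocytes store triglyceride in one large droplet coated by perilipin, build part of its fatty acids from glucose and acetate, and release fatty acids when lipolysis is switched on. They also secrete hormones such as leptin and adiponectin. In the mammary gland they form the fat pad in which the ducts grow, and mouse mammary fat can hold beige adipocytes, which burn fuel through uncoupling protein 1. The genes of each of these functions are taken in turn here.

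The 6 choosing genes are a description and not a result. Adiponectin (Adipoq) and the droplet proteins perilipin 1 (Plin1) and CIDEC mark mature fat cells, Fabp4 carries fatty acids, Lpl frees them from circulating lipoproteins, and Pparg is the main transcription factor of adipocytes. Of all UMIs in the adipocyte-rich spots, these genes took 4.72% and 5.32% at 3 months and 6.56% and 6.14% at 18 months (replicate 1, then replicate 2, here and throughout). In the other spots they took 2.61%, 3.15%, 2.43% and 1.89%. Each of the 6 was higher in the adipocyte-rich than in the other spots of every section, and Adipoq stood at 4327, 5266, 5646 and 5770 counts per 1000000 UMIs of these spots. The lowest share inside the choice was 4.03%, 4.66%, 5.73% and 5.39%, and the highest share outside was the same to these digits. The cut lies on the upper slope of a broad peak, and a smaller group of spots sits near 0. The other spots had a median share of 2.79%, 3.39%, 4.07% and 3.57%, so many of them held adipocyte RNA as well.

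**Figure D1:**
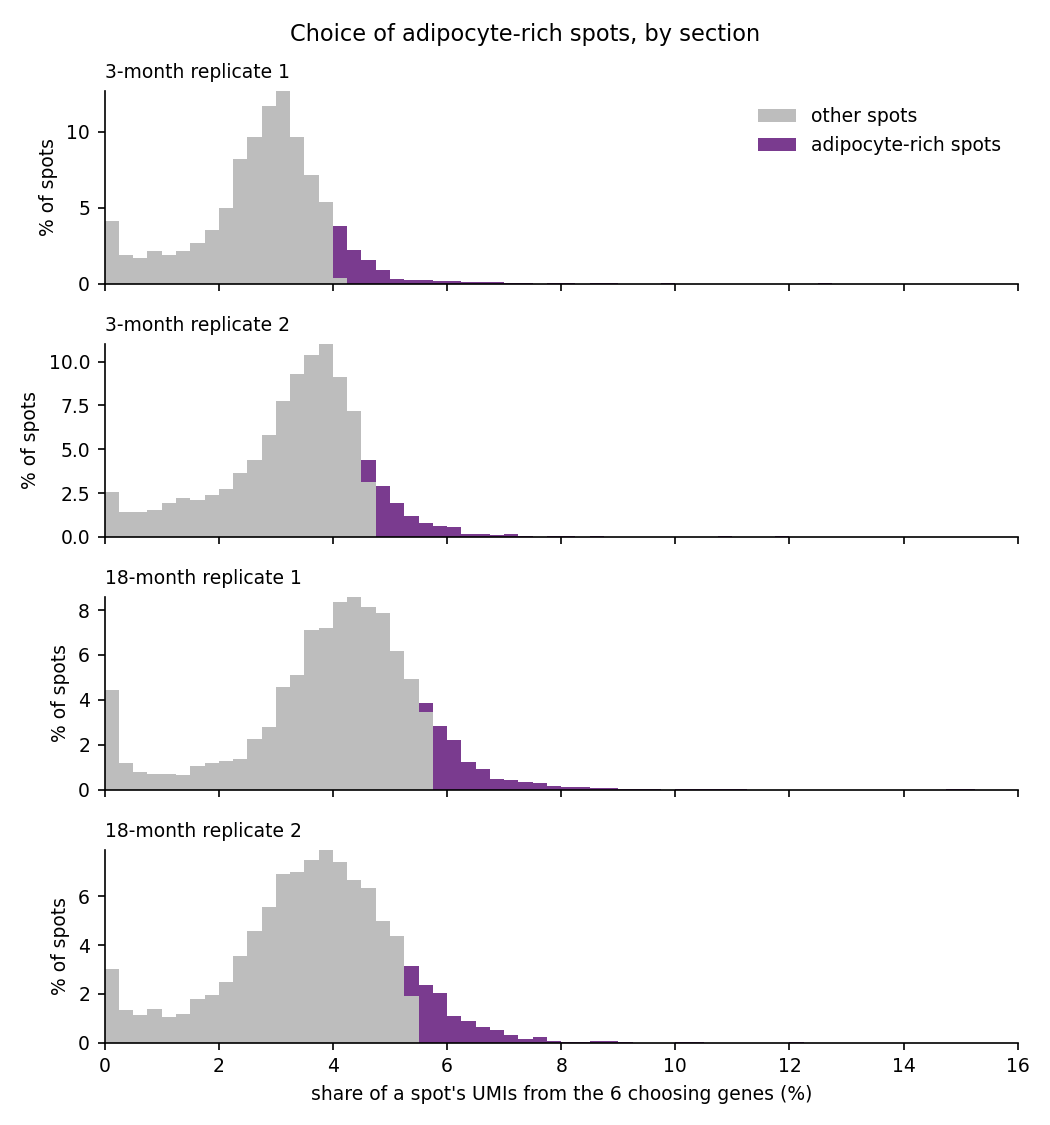
Histograms of the share of a spot's UMIs from the 6 choosing genes (x axis, percent) in each section, as a percent of its spots with at least 500 UMIs (y axis). Purple bars are the adipocyte-rich spots and grey bars all others, and the purple tail starts at 4.03% and 4.66% at 3 months and at 5.73% and 5.39% at 18 months.

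Depth moved with age. The adipocyte-rich spots held 5083008 and 3354374 UMIs at 3 months and 1136714 and 1055528 at 18 months, and the median spot 9490, 7038, 1532 and 1145 UMIs. At 3 months that median was 1.19 and 1.11 times the median of the other spots, and at 18 months 0.822 and 0.833 times. Depth and age cannot be told apart in these sections. After every spot was thinned to 500 UMIs, 54.2%, 55.7%, 61.0% and 67.1% of the spots were chosen again. Where values at 500 UMIs per spot are given, the spots were chosen anew from the thinned counts. The chosen spots were scattered rather than one block. Of their neighbouring spots, 26.8%, 19.2%, 22.1% and 23.7% were also chosen, while 33.2%, 37.0%, 32.4% and 43.5% of them had no chosen neighbour. Few held other tissue: 2, 3, 11 and 7 spots had at least 3 UMIs of a lymphoid, epithelial or muscle marker list at 0.3% (lymphoid, epithelial) or 1% (muscle) of their UMIs.

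UMIs were summed over the adipocyte-rich spots of each section and tested between ages with edgeR's quasi-likelihood test, after the 6 choosing genes had been left out. Levels are given as CPM, counts per 1000000 of the remaining UMIs, and changes as log2 fold change of 18 against 3 months with its standard error (SE). A gene rose or fell where the Benjamini-Hochberg adjusted p over all 11057 genes tested was under 0.05. Of these, 1303 (11.8%) passed, 727 (6.58%) higher and 576 (5.21%) lower at 18 months. The 2 ages did not overlap in 6131 genes (55.4%), so separation alone says little. Over all genes the median change was 0.00 and the range from the 10th to the 90th percentile -0.64 to 0.61. In these summed spots, fewer fat cells and less RNA per fat cell cannot be told apart.

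Most genes of fatty acid synthesis were lower in the old adipocyte-rich spots. Of 15 lipogenic genes tested, 11 fell at 18 months and 4 did not pass. The median change of the list was -1.54. Acacb, which makes the malonyl-CoA that restrains fatty acid oxidation at mitochondria, stood at 650 and 446 CPM at 3 months and at 46.1 and 40.4 CPM at 18 months. It had the largest drop of the list (log2 -3.69, SE 0.23, edgeR adjusted p = 4.03e-07). Fatty acid synthase, Fasn, stood at 13371 and 6753 CPM at 3 months against 3639 and 2414 CPM (-1.75, SE 0.31, edgeR adjusted p = 0.00245). The genes that feed it fell too. Slc25a1, the carrier that brings citrate out of mitochondria, stood at 1071 and 649 against 237 and 191 CPM (-2.03, SE 0.23, edgeR adjusted p = 7.23e-05). Acss2, which turns acetate into acetyl-CoA, stood at 1059 and 619 against 203 and 155 CPM (-2.25, SE 0.24, edgeR adjusted p = 5.04e-05). Both old sections lay below both young ones in each of these 4 genes. Me1, a source of NADPH, changed by -1.96, Acly, which splits citrate, by -1.77, Acaca, which makes malonyl-CoA for synthesis, by -1.64, and Aacs, which activates ketone bodies, by -1.54. Thrsp, a lipogenic regulator, fell by 1.02 and Mlxipl, which encodes the carbohydrate-sensing factor ChREBP, by 1.26. The desaturase Scd1 did not pass, at 14084, 8891, 8513 and 5390 CPM (edgeR adjusted p = 0.116), nor did Srebf1, the gene of SREBP-1, at 106, 114, 83.8 and 99.9 CPM (edgeR adjusted p = 0.27).

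The young replicates were unequal in this list. Its 15 measured genes took 3.10% ± 1.23 (SD, n = 2) of UMIs at 3 months and 1.28% ± 0.354 (SD, n = 2) at 18 months; 3-month replicate 1 held 3.97% and replicate 2 held 2.24%. Without 3-month replicate 1, 10 of the 15 still fell and the median change was -1.01. Without replicate 2, 12 fell and it was -1.54. With DESeq2 in place of edgeR, 8 fell; Acaca and Acly (adjusted p = 0.112 for Acly) were among those lost.

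Genes of triglyceride assembly were also lower. Of 10 genes tested, 6 fell and 4 did not pass, with a median of -0.94. Dgat1, an enzyme of the last step, stood at 209 and 249 CPM at 3 months and at 60.3 and 62.6 CPM at 18 months (-1.93, SE 0.17, edgeR adjusted p = 8.11e-06). The 2 ages were far apart beside the spread of the replicates. Dgat2, the other enzyme of that step, lay at 3892, 2665, 2848 and 3228 CPM with overlapping ages (-0.14, SE 0.21, edgeR adjusted p = 0.735). Agpat2, an earlier acyltransferase whose loss causes lipodystrophy, stood at 1054, 964, 354 and 456 CPM (-1.35, SE 0.17, edgeR adjusted p = 0.000163). Gpd1, which makes the glycerol phosphate backbone, fell by 1.18, Gpam, the first acyltransferase, by 1.02, and the phosphatidate phosphatase gene Lpin1 by 0.81. Pck1, which supplies glycerol phosphate without glucose, changed by -0.86 (edgeR adjusted p = 0.0161), and this call was lost without 18-month replicate 1 (adjusted p = 0.194) or 18-month replicate 2 (adjusted p = 0.0561), and at 500 UMIs per spot (-0.74, adjusted p = 0.0726).

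**Figure D2:**
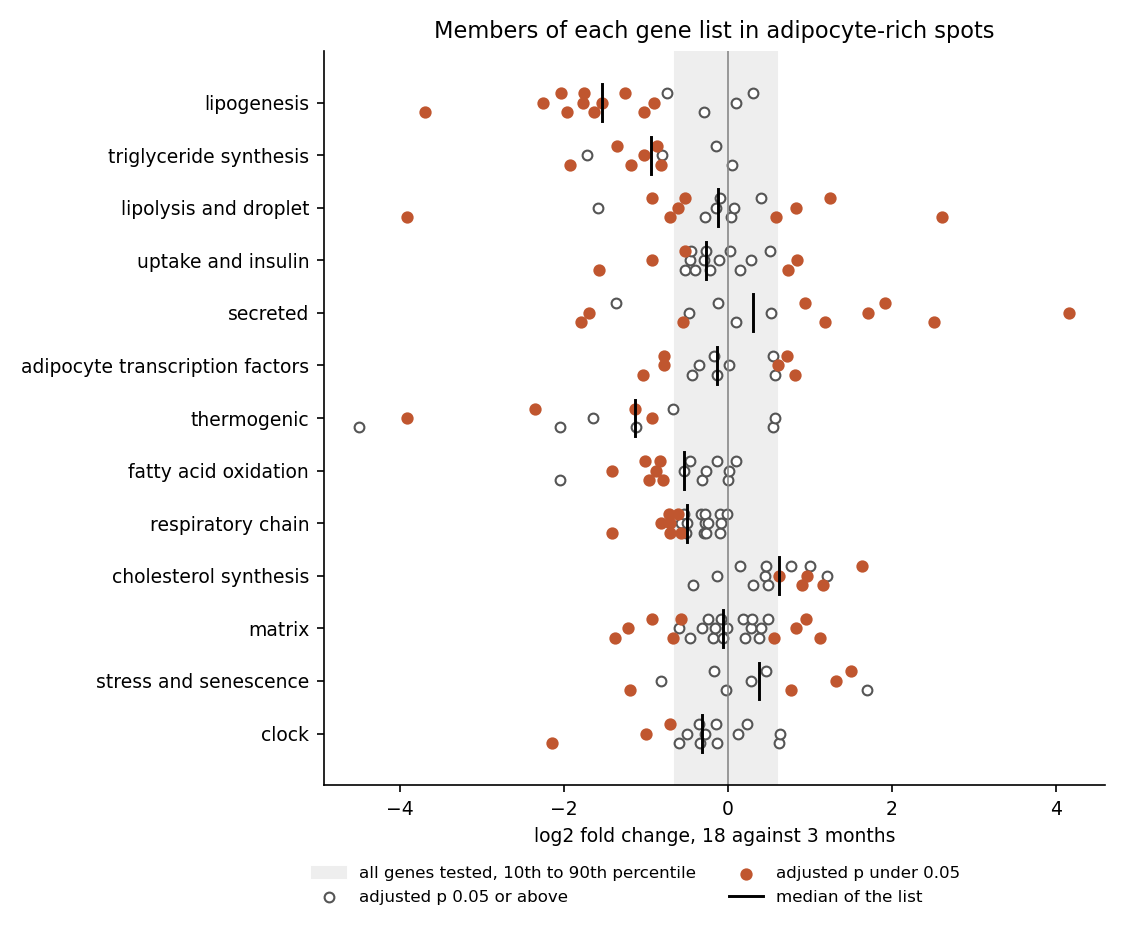
Each point is 1 gene of a list (rows) at its log2 fold change of 18 against 3 months (x axis) in the summed adipocyte-rich spots. Filled points passed an adjusted p of 0.05, black lines are list medians (-1.54 for lipogenesis, 0.62 for cholesterol synthesis), and the grey band from -0.64 to 0.61 holds the middle of all 11057 genes.

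Genes of lipid droplets and lipolysis did not share one direction. Of 16 tested, 4 rose and 5 fell, with a median of -0.12. Npr3, the clearance receptor that removes natriuretic peptides, which drive lipolysis, stood at 439 and 431 CPM at 3 months and at 2907 and 2507 CPM at 18 months (2.61, SE 0.19, edgeR adjusted p = 1.14e-06). Each old section exceeded each young one several times over. G0s2, an inhibitor of adipose triglyceride lipase, stood at 312, 320, 488 and 660 CPM (0.83, SE 0.16, edgeR adjusted p = 0.00469; 0.0654 at 500 UMIs per spot). Adrb3, the beta-3 adrenergic receptor that starts lipolysis, stood at 1129, 1646, 679 and 822 CPM (-0.92, SE 0.20, edgeR adjusted p = 0.00847; 0.0532 without 18-month replicate 1). Pnpla2, the lipase itself, changed by -0.71, Pde3b, through which insulin restrains lipolysis, by -0.61, and the monoglyceride lipase gene Mgll by 0.59. The hormone-sensitive lipase gene Lipe (2806, 2916, 2302 and 2520 CPM) did not pass (edgeR adjusted p = 0.373). Hilpda, a small droplet protein, changed by 1.24 at 10.3, 7.87, 17.9 and 27.3 CPM (edgeR adjusted p = 0.0199; 0.202 without 18-month replicate 2, 0.0573 without 3-month replicate 2, 0.114 with DESeq2). Of this list, 3 genes rose and 2 fell without 18-month replicate 1, 2 rose and 3 fell without 18-month replicate 2, and 2 rose and 3 fell without 3-month replicate 2.

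Uptake and insulin action changed in few members. Of 17 genes tested, 2 rose and 3 fell, and the median was -0.26, while the summed share of the list was 1.51% ± 0.0171 (SD, n = 2) at 3 and 1.66% ± 0.03 (SD, n = 2) at 18 months. The signs differ. Cd36, the fatty acid translocase, was abundant at 7672, 6866, 9096 and 8917 CPM and did not pass (edgeR adjusted p = 0.461). Slc27a1, a fatty acid transport protein, stood at 1873, 2258, 664 and 759 CPM (-1.57, SE 0.18, edgeR adjusted p = 9.19e-05). Irs1, an adaptor of the insulin receptor, stood at 242, 242, 141 and 118 CPM (-0.93, SE 0.16, edgeR adjusted p = 0.00191). The caveolar genes went the other way: Cav1 changed by 0.84 (edgeR adjusted p = 0.00718; 0.0557 without 18-month replicate 1, 0.0806 at 500 UMIs per spot) and Cavin1 by 0.73 (edgeR adjusted p = 0.00926; 0.0766 without 18-month replicate 2). The insulin-responsive glucose transporter gene Slc2a4 changed by -0.52 (edgeR adjusted p = 0.0469) and lost the call without either 18-month section or without 3-month replicate 1 (adjusted p = 0.0607 to 0.213), with DESeq2 (0.0617) and at 500 UMIs per spot (-0.37, adjusted p = 0.322).

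Secreted products of fat cells changed in both directions. Of 14 tested, 6 rose and 3 fell. Leptin, Lep, the hormone that reports fat mass to the brain, stood at 167 and 232 CPM at 3 months and at 1201 and 1122 CPM at 18 months (2.52, SE 0.19, edgeR adjusted p = 1.78e-06). Sfrp5, a secreted binder of Wnt ligands, stood at 11.2 and 11 against 168 and 243 CPM (4.17, SE 0.20, edgeR adjusted p = 5.87e-08). Both were several times higher in each old section than in each young one. A UMI of Lep was found in 77.6%, 78.7%, 79.8% and 66.1% of the spots, although the old spots were far shallower. After thinning to 500 UMIs these shares were 8.92%, 12.4%, 43.7% and 38.7%, so the rise was spread over many spots. For Sfrp5 the thinned shares were 0.915%, 0.506%, 6.58% and 12.1%.

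Angiotensinogen, Agt, stood at 33.5, 40.6, 155 and 88.8 CPM (1.71, SE 0.24, edgeR adjusted p = 0.000326), but changed by 0.94 at 500 UMIs per spot (adjusted p = 0.16). Rarres2, the gene of chemerin, rose by 1.19 and Adamts1 by 0.95. Adipsin, Cfd, a protease of the complement system made by fat cells, stood at 45260, 48603, 14265 and 15299 CPM (-1.70, SE 0.28, edgeR adjusted p = 0.00122). Nrg4, a growth factor released by fat, stood at 560, 575, 134 and 204 CPM (-1.79, SE 0.18, edgeR adjusted p = 3.03e-05). Because Cfd outweighed the rest, the summed share of the list fell from 5.05% ± 0.252 to 2.09% ± 0.0163 (SD, n = 2 each), while the median change over its genes was 0.31. Resistin, Retn, lay at 3425, 4048, 3872 and 3149 CPM with overlapping ages. Nampt, which makes a precursor of NAD, changed by -0.55. Leaving out 18-month replicate 1 or 18-month replicate 2 left 1 secreted gene past the threshold for a decrease.

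**Figure D3:**
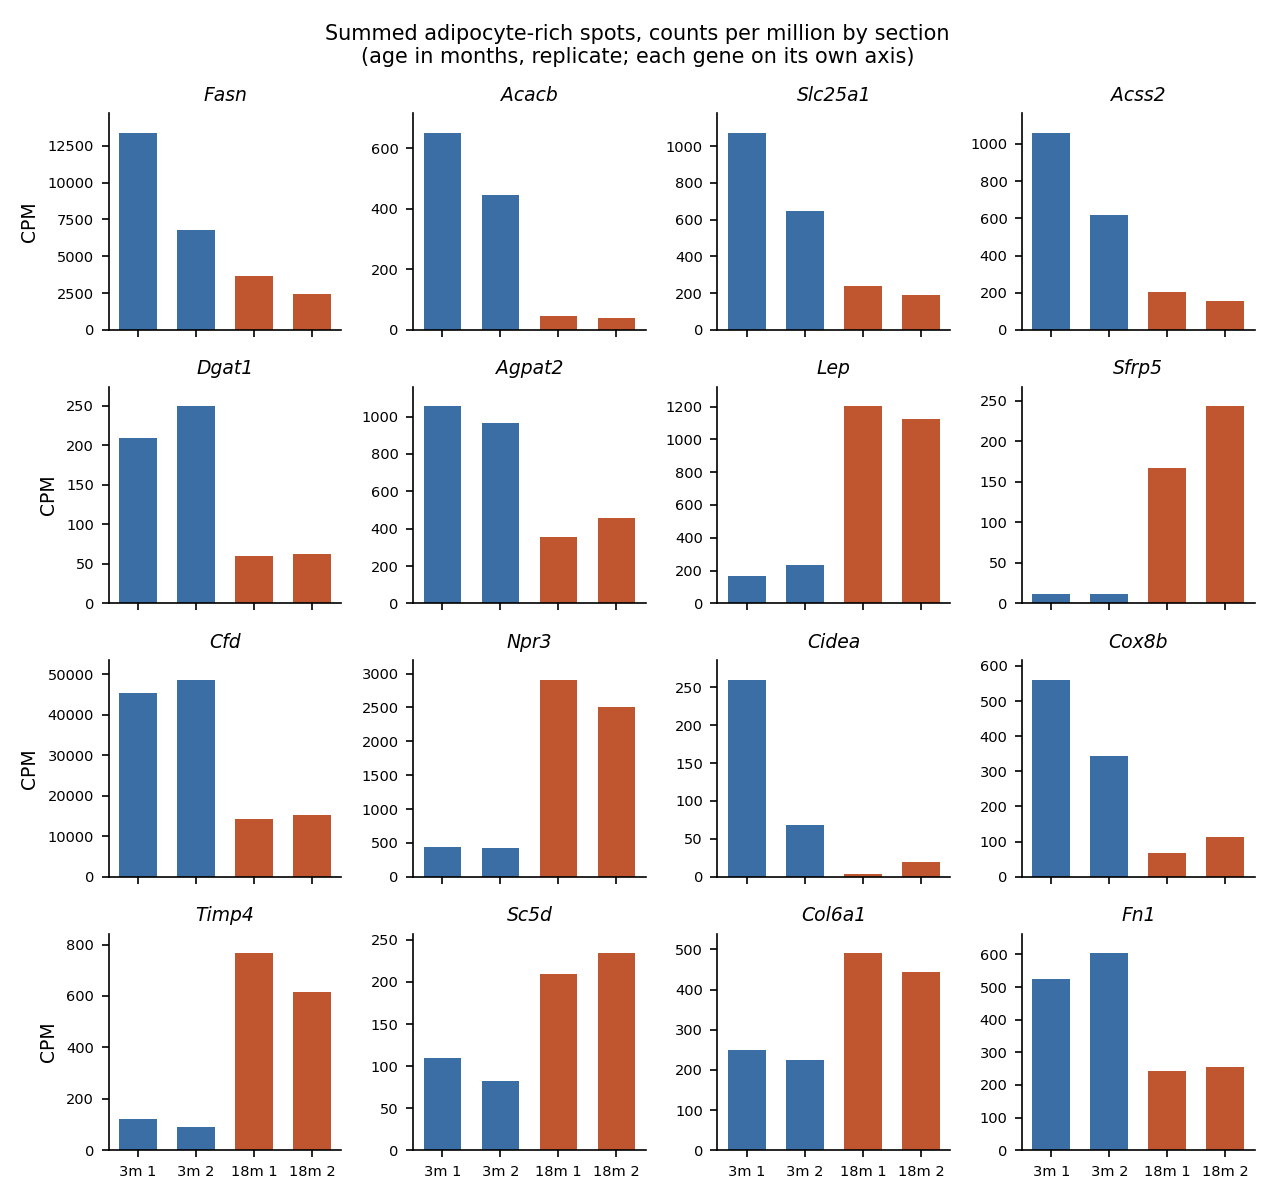
Bars give the CPM of 16 genes in the summed adipocyte-rich spots of each section, blue for 3 months and orange for 18 months, each gene on its own axis from 0. Lep, Sfrp5, Npr3, Timp4, Sc5d and Col6a1 are higher in both old sections, the other 10 lower, and 3-month replicate 1 exceeds replicate 2 in Fasn and Cidea.

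Most transcription factors of adipocytes did not pass. Of 13 tested besides Pparg, 3 rose, 3 fell and 7 did not pass, with a median of -0.13. Ebf1, a factor of fat cell formation, rose from 141 and 124 to 228 and 252 CPM (0.82, SE 0.15, edgeR adjusted p = 0.00249), while its relative Ebf2, known from beige and brown fat, stood at 45.6, 40.3, 22.6 and 20.2 CPM (-1.04, SE 0.22, edgeR adjusted p = 0.00817). Cebpb, active early in differentiation, changed by -0.78, at 266, 302, 157 and 182 CPM. Cebpa, active in mature fat cells, lay at 1838, 1781, 1357 and 1548 CPM and did not pass (edgeR adjusted p = 0.223). Cebpd changed by -0.78 (edgeR adjusted p = 0.0303; 0.192 without 18-month replicate 2) and Tle3 by 0.72 (edgeR adjusted p = 0.0148; 0.131 without 18-month replicate 2). Without that section 1 factor rose and 2 fell. At 500 UMIs per spot Cebpb changed by -0.43 (adjusted p = 0.341), Cebpd by -0.61 (0.427) and Tle3 by 0.80 (0.31), and with DESeq2 Ebf2 did not pass (0.083).

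Of 11 thermogenic genes tested, 4 fell and 7 did not pass, with a median of -1.13. The list took 0.237%, 0.213%, 0.0856% and 0.105% of UMIs. The young sections were close in this sum, but Ucp1 and Cidea were far higher in 3-month replicate 1 than in replicate 2. Ucp1 had 688 UMIs in 3-month replicate 1 and 15, 1 and 6 in the other three sections, or 142, 4.72, 0.941 and 6.06 CPM. The ages overlapped and it did not pass (edgeR adjusted p = 0.0555). In 3-month replicate 1 these UMIs sat in 79 of 437 spots, with up to 46 in one spot, and the richest 43 spots held 93.8% of them. Moran's I measures whether a gene's high spots lie side by side, and the authors' deposited table of it ranked Ucp1 at 9 of 19300 genes in that section (0.736) and at 10357 of 19294 in 3-month replicate 2 (0.00942).

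Cidea, a droplet protein of beige and brown fat, stood at 260, 68.0, 3.77 and 19.2 CPM (-3.91, SE 0.66, edgeR adjusted p = 0.00152). Cox8b, a cytochrome oxidase subunit of brown fat and muscle, stood at 561, 344, 67.8 and 114 CPM (-2.36, SE 0.25, edgeR adjusted p = 4.11e-05). A UMI of Cox8b was found in 73.0%, 65.1%, 9.95% and 11.3% of the spots, and after thinning in 13.5%, 13.4%, 2.41% and 4.95%. When spots with at least 3 UMIs of Ucp1 were left out (40, 1, 0 and 0 spots), a choice made after the data were seen, Cidea changed by -3.16 (edgeR adjusted p = 6.05e-05) and Cox8b by -2.03 (edgeR adjusted p = 1.56e-06). Kcnk3, a potassium channel of thermogenic fat, changed by -1.13, and by -0.33 at 500 UMIs per spot (adjusted p = 0.741). Without 3-month replicate 2, 10 thermogenic genes of 13 tested fell, and without 3-month replicate 1, 4 of 8.

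Most genes of fatty acid oxidation and of the respiratory chain did not pass. Of 15 oxidation genes 6 fell and 9 did not pass, with a median of -0.54. Hadha, of the trifunctional protein, stood at 237, 145, 82.8 and 63.6 CPM (-1.42, SE 0.23, edgeR adjusted p = 0.00134). Slc25a20, the carnitine carrier, stood at 191, 181, 97.9 and 97.9 CPM (-0.96, SE 0.15, edgeR adjusted p = 0.00106). Ehhadh, a peroxisomal enzyme, stood at 36.7 and 31.3 CPM at 18 months against 58.8 and 76.2, the acyl-CoA dehydrogenase genes Acadvl and Acadl by -0.88 and -0.83, and Cpt2, of the carnitine system, by -0.78. Without 3-month replicate 2, 9 fell. Of 21 genes of the respiratory chain all 21 had a negative change, with a median of -0.50, and 7 passed. Cyc1, of complex III, stood at 703, 600, 417 and 393 CPM (-0.72, SE 0.16, edgeR adjusted p = 0.0107). Uqcrfs1, of the same complex, stood at 945, 810, 573 and 438 CPM (-0.82, SE 0.18, edgeR adjusted p = 0.0104). Both calls were lost without 18-month replicate 2 (adjusted p = 0.0637 and 0.0964). That count was the least stable: 1 gene of the chain passed without 18-month replicate 2, 4 without 18-month replicate 1, 3 without 3-month replicate 1 and 11 without 3-month replicate 2. At 500 UMIs per spot, 1 of 14 oxidation genes and 1 of 20 chain genes passed. There Hadha changed by -1.16 (adjusted p = 0.118), Slc25a20 by -0.57 (0.326), Ehhadh by -0.21 (0.849), Acadvl by -0.47 (0.347), Acadl by -0.54 (0.154), Cyc1 by -0.40 (0.323) and Uqcrfs1 by -0.65 (0.0868).

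Genes of cholesterol synthesis mostly went the other way from those of fatty acid synthesis. Of 15 genes tested 5 rose and 10 did not pass, 13 had a positive change, and the median was 0.62. Both pathways are driven by SREBP factors, which bind sterol response elements. Sc5d, an enzyme late in the pathway, stood at 110, 82.2, 209 and 234 CPM (1.17, SE 0.16, edgeR adjusted p = 0.000381). Hmgcs1, which makes HMG-CoA at the head of the pathway, stood at 101, 70.5, 155 and 178 CPM (0.91, SE 0.18, edgeR adjusted p = 0.00429). The old sections lay above the young ones in both. Mvk, the kinase of mevalonate, changed by 0.62 (edgeR adjusted p = 0.0381; 0.0787 to 0.161 without any one section). Insig1, the sterol sensor's partner, did not pass at 430, 389, 331 and 290 CPM (edgeR adjusted p = 0.1). Without 18-month replicate 1, 3 genes of the list rose. At 500 UMIs per spot Hmgcs1 changed by 0.63 (adjusted p = 0.267), and 1 of 7 genes tested rose.

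Promoter windows were searched for the letters of a sterol response element, TCACNCCAC, since SREBP factors bind it and the 2 lists moved in opposite directions. RefSeq windows of build GRCm38.p6, 250 bases before to 50 after a start, were found for 14 of 16 lipogenic and 10 of 16 cholesterol genes. The letters, on either strand, were in 1 of 18 lipogenic windows (5.56%, Mlxipl, lower at 18 months) and 1 of 12 cholesterol windows (8.33%, Hmgcs1, higher), against 1.24% of all 32851 windows. The E-box CACGTG, which can share letters with it, was in 3 windows of each list (16.7% and 25%) against 7.15% of all. The 250 bases before each start follow 5′ to 3′ on the + strand, with the matched letters in capitals. They lie at chr13:119690101-119690350 for Hmgcs1 and at chr5:135106641-135106890 for Mlxipl. These are matches of letters and not measured binding.
Hmgcs1: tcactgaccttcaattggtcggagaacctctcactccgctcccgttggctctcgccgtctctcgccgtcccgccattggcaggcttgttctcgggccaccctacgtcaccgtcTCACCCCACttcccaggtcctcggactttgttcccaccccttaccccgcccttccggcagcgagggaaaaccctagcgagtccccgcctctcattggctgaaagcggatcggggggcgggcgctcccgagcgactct
Mlxipl: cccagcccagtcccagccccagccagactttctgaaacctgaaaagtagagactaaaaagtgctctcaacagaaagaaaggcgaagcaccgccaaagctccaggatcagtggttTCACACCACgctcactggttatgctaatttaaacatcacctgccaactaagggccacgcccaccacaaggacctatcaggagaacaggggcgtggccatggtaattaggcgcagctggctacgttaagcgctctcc

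Matrix genes were split. Of 25 tested 4 rose and 5 fell, with a median of -0.06. Fibronectin, Fn1, stood at 524, 604, 243 and 254 CPM (-1.21, SE 0.16, edgeR adjusted p = 0.000222) and periostin, Postn, at 474, 816, 286 and 218 CPM (-1.38, SE 0.24, edgeR adjusted p = 0.00191). Col1a2 of fibrillar collagen changed by -0.92. Collagen VI, which surrounds fat cells, rose through Col6a1, at 249, 225, 490 and 444 CPM (0.95, SE 0.15, edgeR adjusted p = 0.00121). Lox, which cross-links collagen, stood at 20.4, 24.9, 50.8 and 49.5 CPM (1.13, SE 0.21, edgeR adjusted p = 0.00297), but changed by 0.72 at 500 UMIs per spot (adjusted p = 0.46). Of the basement membrane, Col15a1 rose by 0.83. Col1a1 did not pass, at 1471, 1592, 1393 and 1373 CPM (edgeR adjusted p = 0.568).

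Of 10 genes of stress and senescence tested, 3 rose and 1 fell. Cdkn1a, the gene of the cell cycle inhibitor p21, stood at 31.8, 22.7, 85.7 and 54.5 CPM (1.32, SE 0.24, edgeR adjusted p = 0.00277). Cdkn2b, another inhibitor, changed by 1.51 at 5.37, 8.82, 18.8 and 21.2 CPM (edgeR adjusted p = 0.0126; 0.0603 without 18-month replicate 2, 0.0997 without 3-month replicate 1, 0.0689 with DESeq2). Haptoglobin, Hp, changed by 0.77 (edgeR adjusted p = 0.00721; 0.0525 without 18-month replicate 2, 0.0861 at 500 UMIs per spot), and complement C3 fell from 1581 and 1455 to 809 and 540 CPM. Without 18-month replicate 2, 1 rose. The list's median was 0.38, but its summed share was 0.239% ± 0.0191 at 3 and 0.203% ± 0.0117 (SD, n = 2 each) at 18 months, since C3 is its most abundant member. Of 14 clock genes 3 fell, among them Dbp, an output gene of the clock, at 384, 486, 57.4 and 145 CPM (-2.15, SE 0.27, edgeR adjusted p = 0.000165), and Tef at 186, 250, 82.8 and 140 CPM. Dbp cycles over the day, and the labels do not give the hour of collection. Nr1d2 changed by -0.71 and lost its call without 18-month replicate 1 (adjusted p = 0.259), with DESeq2 (0.137) and without spots of other tissue (0.0534). At 500 UMIs per spot it changed by -0.38 (adjusted p = 0.655) and Tef by -0.74 (0.292). Without 18-month replicate 2, 6 clock genes fell. Of 14 immediate early genes, which respond to handling, Jund rose by 0.58 (edgeR adjusted p = 0.021; 0.0874 without 18-month replicate 1, 0.126 without 3-month replicate 2, 0.343 at 500 UMIs per spot) and 13 did not pass. Without 3-month replicate 1, 4 of them rose.

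Markers of other cells moved with age in the same spots, and their part in the changes above was not tested except where other tissue was left out. The lymphoid list took 0.00622% and 0.00474% of UMIs at 3 months and 0.0387% and 0.0283% at 18 months, and 5 of 9 tested members rose. Igkc, an antibody light chain, stood at 9.70, 14.2, 324 and 172 CPM here and at 146, 482, 14095 and 2984 CPM in the other spots. The B cell marker Cd79a stood at 1.65, 3.78, 16.9 and 22.2 CPM. Of the adipocyte-rich spots, 57.0%, 73.7%, 65.8% and 80.1% had no UMI of the list. Without 18-month replicate 2, 2 lymphoid members rose, and 2 of 7 rose when spots of other tissue and their neighbours were left out. The muscle list took 0.00661%, 0.0172%, 0.00598% and 0.00246%, with 5 of 6 lower, 3 of 7 without 18-month replicate 2 and 1 of 2 without 3-month replicate 2. The epithelial list took 0.0228%, 0.0221%, 0.00572% and 0.00995%, with 4 of 9 lower, among them Epcam at 52.7, 48.8, 10.4 and 13.1 CPM. Macrophage markers took 0.0730%, 0.0790%, 0.0805% and 0.104%. Of these, 3 of 10 rose, of which 1 held without 3-month replicate 1. Without 18-month replicate 2 the adjusted p was 0.234 for Cd163, 0.427 for Gpnmb and 0.163 for Mrc1.

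Stromal and vascular markers were mixed. Fibroblast markers took 0.719%, 0.782%, 1.27% and 1.19% of UMIs. Dpt, at 1220, 1525, 2947 and 2695 CPM, and Gsn rose, Mfap5 fell, and the list's median was -0.22. Gsn, which fat cells also express, lost its call without either 18-month section (adjusted p = 0.24 and 0.0993), and Mfap5 without 18-month replicate 1 or 3-month replicate 1 (adjusted p = 0.0933 each). Of 8 endothelial genes 3 fell, of which Egfl7, at 251, 207, 122 and 133 CPM, held when any section was left out, whereas Kdr and Tek did not (adjusted p = 0.0807 to 0.145 for Kdr and up to 0.336 for Tek). Among 7 pericyte and smooth muscle genes Acta2 rose, from 67.3 and 46.0 to 156 and 147 CPM, and Cspg4 fell, from 91.7 and 70.8 to 17.9 and 27.3 CPM. The median of that list was -0.11, while its summed share was 0.0583% ± 0.00255 at 3 and 0.0626% ± 0.00166 (SD, n = 2 each) at 18 months. Of 4 Schwann cell genes Pmp22 fell by 0.72 (edgeR adjusted p = 0.0107; 0.0727 without 18-month replicate 2). At 500 UMIs per spot the adjusted p was 0.118 for Acta2, 0.0886 for Gsn, 0.669 for Mfap5, 0.188 for Kdr, 0.344 for Tek and 0.197 for Pmp22. When the spots that held lymphoid, epithelial or muscle markers were left out, 1286 genes passed in place of 1303, and 1274 when their neighbours were left out as well, an alternative added after the data were seen. The lipogenic count of 11 and the secreted counts of 6 and 3 were the same in both.

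Genes carried more by the adipocyte-rich spots than by the rest of the section also changed. There were 11 tested genes with a level at least 1.5 times that of the other spots in all 4 sections. Of these, 6 did not pass. The 5 that passed had at least 20 CPM and separate ages, and all 5 fell, among them Cox8b, Acaca, Acsm3 and S100a1. The spot classes differed less at 3 months, where the choosing genes took 4.72% and 5.32% of UMIs against 2.61% and 3.15%. At 18 months they took 6.56% and 6.14% against 2.43% and 1.89%. Adipoq itself missed the limit at 3 months, while Fabp4 met it. A limit of 1.5 in the young sections favours genes high there, so these 5 falls cannot show in which direction such genes moved. Acsm3, which activates medium-chain fatty acids, stood at 49.6, 63.6, 29.2 and 19.2 CPM (-1.23, SE 0.25, edgeR adjusted p = 0.00533). S100a1 changed by -0.57 and lost its call without 18-month replicate 2 (adjusted p = 0.197) or 3-month replicate 1 (adjusted p = 0.0586), and at 500 UMIs per spot (0.325). With a level merely above that of the other spots, a limit chosen after the values were seen, 294 genes passed, 116 higher and 178 lower. These too had at least 20 CPM and separate ages. Genes that met this looser limit but did not pass were not counted.

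The largest increases among these were in Timp4, an inhibitor of matrix proteases found in fat, at 120, 89.4, 766 and 617 CPM (2.69, SE 0.19, edgeR adjusted p = 9.27e-07), and Tshr, the thyrotropin receptor, at 116, 112, 401 and 412 CPM (1.80, SE 0.15, edgeR adjusted p = 3.38e-06). In both genes each old section lay above each young one. Tmem45b followed at 1.71, Dusp10, a phosphatase of stress kinases, at 1.66, Tln2, a talin, at 1.57, Lpgat1, a lipid acyltransferase, at 1.57, and Kcnj15, a potassium channel, at 1.54. Alb changed by 1.28 at 79.9, 54.5, 243 and 88.8 CPM, and lost its call without 18-month replicate 1 (adjusted p = 0.513), with DESeq2 (0.467) and at 500 UMIs per spot (0.305). Among the decreases Cyp2e1, a cytochrome P450, stood at 2527, 4749, 553 and 531 CPM (-2.78, SE 0.27, edgeR adjusted p = 1.81e-05). The antilipolytic receptors of lactate and of ketone bodies and niacin, Hcar1 and Hcar2, changed by -2.14 and -2.05. Hcar1 (adjusted p = 0.0613) and Kcnj15 (0.0671) did not pass at 500 UMIs per spot. Mup17 changed by -4.08 and H2-Q10 by -2.83, but both belong to families of near-identical genes whose probes may not separate the members.

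The age change of the adipocyte-rich spots was then set against that of the other spots of the same sections, with the section as a block. Of 19180 genes 3427 (17.9%) passed, 2595 (13.5%) more positive and 832 (4.34%) more negative in adipocyte-rich spots. Scaled by TMM, 75.7% of the calls were more positive, and scaled by total UMIs 35.3%, and the median of all genes moved from 0.02 to -0.32, so the split hangs on the scaling, although all 3427 genes had the same sign under both. Among genes with at least 20 CPM, the 5 most negative were of lymphocytes, and the 5 most positive held the muscle genes Acta1 and Myl1. The rest of the 5 most positive were Cystm1 (2.28), Sfrp5 (2.12) and Lbp (2.03), given below. Acta1 of skeletal muscle lay at 498, 756, 21.2 and 12.1 CPM in the other spots and at 22.3, 78.7, 52.7 and 20.2 CPM in the adipocyte-rich ones (difference of log2 changes 5.24), and Myl1 differed by 2.15. Ccl5, a chemokine of T cells, lay at 43.7, 29.7, 674 and 307 CPM in the other spots and at 42.1, 21.1, 36.7 and 18.2 CPM in the adipocyte-rich ones (-3.62). The lymphocyte genes Gimap4, Gimap8, Cd52 and Cd37 differed by -2.35 to -2.18 and did not pass without 3-month replicate 1 (adjusted p = 0.0837 to 0.11). Spots with lymphoid, epithelial or muscle markers were then left out of the other spots alone. The 2, 3, 11 and 7 such adipocyte-rich spots were kept. In this fit, called below the fit with other tissue left out, 25 of 18261 genes (0.137%) passed. Of these, 20 were more positive and 5 more negative, and Acta1 stood at -0.26 and Myl1 at -0.080. The full count was also carried by the 3-month sections: 9 genes passed without replicate 1 and 58 without replicate 2.

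Several products that fat cells secrete were among those 25. Sfrp5, at 16.1, 28.2, 89.6 and 138 CPM in the other spots, rose more in the adipocyte-rich ones by 2.12 (SE 0.20, edgeR adjusted p = 2.7e-13), and by 1.14 with other tissue left out (edgeR adjusted p = 5.89e-05). Lbp, which binds bacterial lipopolysaccharide, stood at 39.2, 28.3, 202 and 197 CPM in adipocyte-rich and at 66.1, 48.4, 109 and 101 CPM in other spots, and differed by 2.03, or 1.1 with other tissue left out (edgeR adjusted p = 9.28e-08). In both genes the adipocyte-rich spots lay below the rest at 3 months and above it at 18 months. Cystm1 (2.28, and 0.96 with other tissue left out) and Agt (1.78 and 0.86) were also among them, together with Bmp3, Mest, Thbs1, Thbd, Anxa1, Tuba1a, Cavin3, Apol6, Adamtsl4, Dock8 and Retnla. Mest, an imprinted gene linked to fat cell size, stood at 25.2, 37.8, 343 and 186 CPM in adipocyte-rich and at 26.5, 33.3, 137 and 74.1 CPM in other spots. Bmp3 stood at 28.7, 29.3, 243 and 260 CPM against 37.8, 33.6, 121 and 115 CPM. The immunoglobulin genes Igkc, Igha, Ighm and Ighj1 were in the more positive set too, and Epcam, Kit, Gpx8, Hba-a2 and Hbb-bs made up the more negative one. With all other spots in the fit, the immunoglobulin genes differed by 0.03, 1.70, -0.60 and -1.81, none past the threshold as more positive. Igkc is on the lymphoid and Epcam on the epithelial list by which spots were left out of the other class alone. The values of Igkc and Epcam in this fit are thus partly set by that choice and are no separate evidence. Igha, Ighm and Ighj1 are on neither list and differed by 3.64, 0.87 and 1.06 in this fit. How far leaving out spots by Igkc and the other markers set these values was not tested. Igha had 7 and 49 UMIs in the adipocyte-rich spots at 18 months. Without 3-month replicate 1 the difference of Agt, other tissue included, did not pass (adjusted p = 0.0537). Only 10 genes in place of 3427 passed at 500 UMIs per spot. There the difference was 1.16 for Sfrp5 (adjusted p = 0.834), 1.34 for Lbp (0.198), 0.68 for Cystm1 (0.936) and 0.42 for Agt (0.931). These calls thus did not hold at equal depth per spot. Thinning also changed the chosen spots and cut their UMIs at 3 months from 5083008 and 3354374 to 218500 and 197500. A lost call therefore cannot tell an effect of depth from a loss of power.

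**Figure D4:**
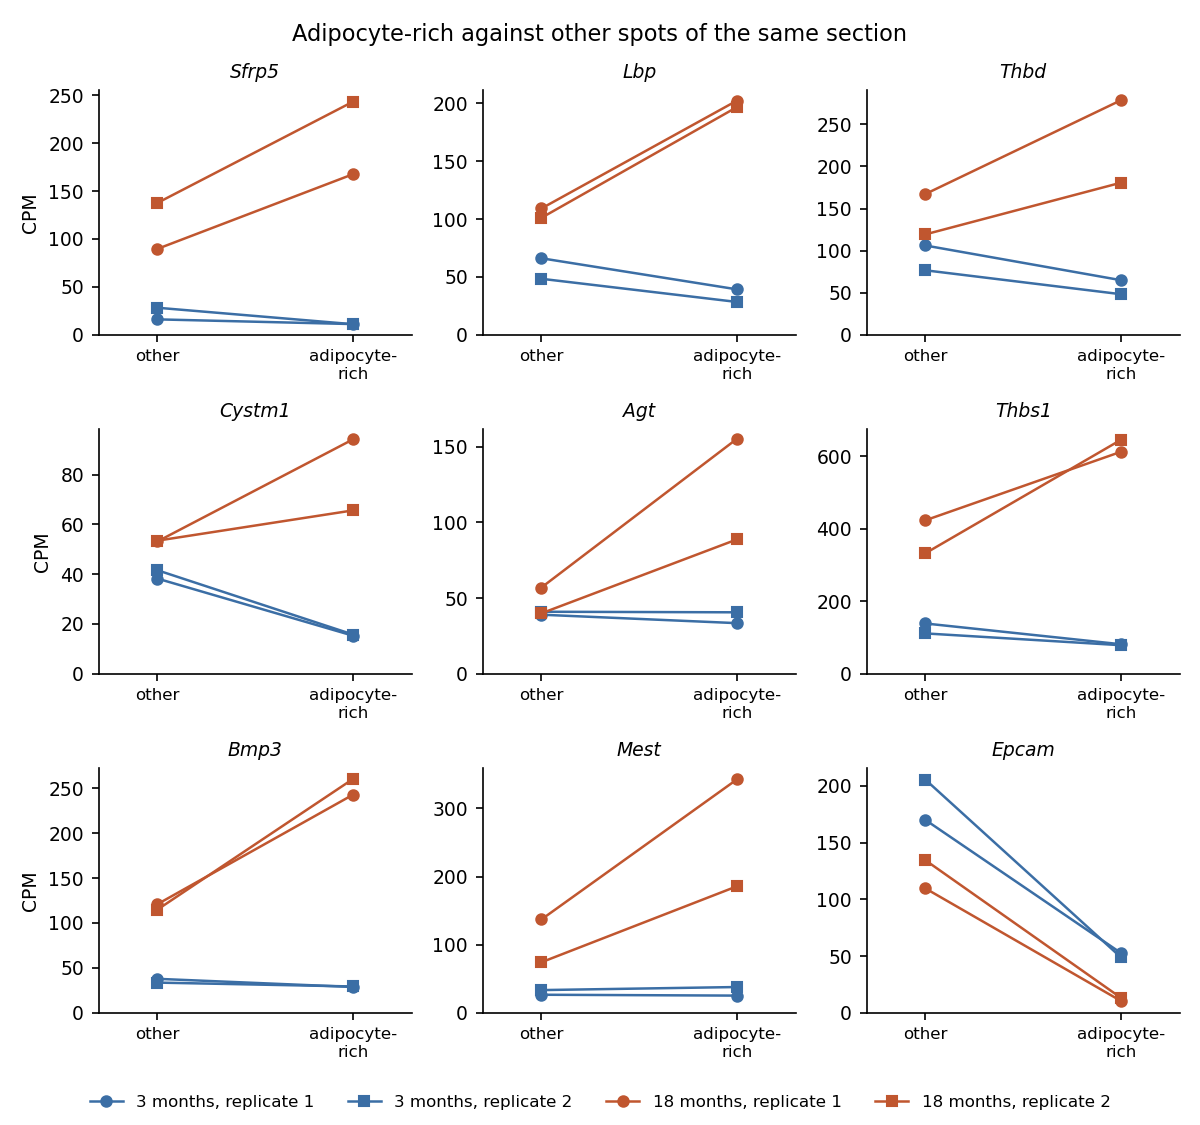
Lines join the CPM of the other spots (left) and the adipocyte-rich spots (right) of each section, blue for 3 months, orange for 18 months, circles for replicate 1 and squares for replicate 2. In Sfrp5, Lbp and Bmp3 the orange lines rise to the right while the blue lines fall, and in Epcam all 4 lines fall.

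With all other spots in the fit, the age change of 11 of 15 lipogenic and 14 of 16 droplet and lipolysis genes differed between spot classes. Over all 19180 genes 17.9% did. The difference was 1.08 for Fasn (edgeR adjusted p = 0.0024), 1.50 for Npr3 (3.96e-08), 1.37 for Lep (9.16e-09) and 0.55 for Dgat1 (0.0405). The choosing genes took 4.72% and 5.32% of UMIs against 2.61% and 3.15% in the other spots at 3 months. At 18 months they took 6.56% and 6.14% against 2.43% and 1.89%. The choice thus set the classes further apart at 18 months, and its part in these differences was not tested. With other tissue left out, the difference was 0.17 for Fasn (edgeR adjusted p = 0.94), -0.34 for Acacb (0.85) and -0.12 for Dgat1 (0.98). It was 0.37 for Lep (0.46), 0.52 for Npr3 (0.057) and 0.05 for Cfd (0.99). None of these passed the threshold. In the other spots Fasn stood at 8244, 4700, 1776 and 766 CPM, Acacb at 318, 279, 32.9 and 21.9 CPM, and Lep at 167, 213, 575 and 517 CPM. A p above the threshold does not show that the classes changed alike. The ages were separate there too, in the same direction as in the adipocyte-rich spots.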

How the data were processed

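Spatial libraries were made from 15 µm sections on Visium CytAssist slides, per the labels' protocols. Values are the deposited UMI counts of each spot, not normalised, from Space Ranger 2.0.0 per the file headers, and mm10 is the genome build in the submitters' processing notes. The authors' deposited Moran's I is a score per gene and section, and how they scaled the values behind it is not stated in the labels. Of the 11876 barcodes under tissue in any section, 852 were under tissue in all 4; they mark fixed places of the slide. No doublet caller was run on spots.

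The adipocyte-rich spots and the 22 gene lists were chosen with earlier results of these data known, so no list is independent evidence. UMIs were summed per section without the 6 choosing genes and fitted in edgeR 4.0.16 (filterByExpr, TMM, glmQLFit, glmQLFTest) under R 4.3.3, and adjusted by Benjamini-Hochberg with a threshold of 0.05. SE is the absolute log2 change over the root of F. The interaction fit held the section, spot class and spot class by age. A two-sided exact permutation test of 2 against 2 sections cannot go below 0.333, so shares of lists carry no test. The scripts were tested on simulated data. Library sizes for CPM were 4843111, 3175927, 1062178 and 990677 UMIs.

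Named genes were, per list, up to 5 past the threshold with the largest change and at least 5 CPM, or the most abundant; the 8 largest in each direction with at least 20 CPM, separate ages and 1.5 times the level of other spots; and the 5 most positive and negative of the interaction. Other list members given with values, the further genes of the 25 and the looser limit were chosen after values were seen. Of the lists, 1 lipogenic, 4 respiratory, 1 cholesterol and 1 clock gene were not measured. A few genes that meet these rules are counted but not reported here by name. Alternatives were DESeq2 1.42.0, library size alone, no filter, other choices of spots, thinning to 500 UMIs, a replicate block and leaving out each section.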

Additional observations from a re-analysis of the deposited data

Results flagged for a closer look

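Each of these genes had an age change that differed between the adipocyte-rich and the other spots of the same sections. The test was edgeR's interaction term, with Benjamini-Hochberg adjustment over 19180 genes. Each also differed when spots of other tissue were left out of the other spots alone. The differences of log2 changes were 2.12 for Sfrp5, 2.03 for Lbp, 2.28 for Cystm1 and 1.78 for Agt, all more positive in adipocyte-rich spots, and -1.17 for Epcam, more negative. With other tissue left out they were 1.14, 1.1, 0.96, 0.86 and -1.40. Epcam is itself on the epithelial list by which spots were left out, so its value of -1.40 is no separate evidence. The choosing genes took 4.72% and 5.32% of UMIs against 2.61% and 3.15% in the other spots at 3 months. At 18 months they took 6.56% and 6.14% against 2.43% and 1.89%. The choice thus set the classes further apart at 18 months, and its part in these differences was not tested. The adipocyte-rich spots held 1.19 and 1.11 times the median UMIs of the other spots at 3 months and 0.822 and 0.833 times at 18 months. With each spot thinned to 500 UMIs and the spots chosen anew, every one of these calls was lost. The differences were then 1.16 for Sfrp5, 1.34 for Lbp, 0.68 for Cystm1, 0.42 for Agt and -0.50 for Epcam (adjusted p = 0.198 to 0.951). The call of Epcam was also lost without 3-month replicate 1 (-0.94, adjusted p = 0.206) or 3-month replicate 2 (-1.36, adjusted p = 0.0945). With 2 sections per age no section could be tested as standing apart.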

How the results depend on the processing

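In place of 1303 genes by age, DESeq2 called 633, the top 5% of spots 856, every spot with at least 3% of its UMIs from the choosing genes 2469, and thinning to 500 UMIs 200 of 5140 tested. Leaving out one section called 959 to 1053. All 1303 kept their sign under library size alone, DESeq2 and no filter; 884 of the 903 still tested did after thinning. No filter gave 945 calls, 40.2% of them higher, against 55.8% with it, and the 3% share 34.0%. In place of 3427 genes that differed between spot classes, DESeq2 called 1769, thinning 10, and leaving out one section 9 to 3211. Leaving other tissue out of the other spots alone called 25. After thinning Mvk changed sign (-0.11), as did the log2 ratio of the summed pericyte and smooth muscle share (-0.12). Acta1 (-0.26) and Myl1 (-0.080) changed sign between spot classes with other tissue left out of the other spots alone, where fewer spots enter. For the others the cause was not tested.

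Of 124 results for named genes by age, 55 lost their call under at least one alternative, 17 of them under thinning alone. The 124 include genes with no call to lose, such as Jun (edgeR adjusted p = 0.88) and Dcn (0.563). The share lost among called genes is therefore larger than 55 of 124. The labels number the sections 1 and 2 at both ages. Deviations of same-numbered sections from their age mean did not go together (r = -0.02 over 7490 genes). With 2 sections per age this is a single correlation, so it cannot show whether the numbers pair the sections. A replicate block gave 1534 calls, holding all 1303. At 500 UMIs per spot 5140 genes could be tested in place of 11057. The summed spots then held 218500 and 197500 UMIs at 3 months and 311500 and 383500 at 18 months.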
